A study of Danio rerio with 12 samples.

Results

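The genes described here are 9 genes of the p53 pathway and of apoptosis, taken by name: mdm2, cdkn1a, ccng1, gadd45aa, bbc3, baxa, bcl2l1, casp8 and casp3a. The name baxa belongs to 2 gene IDs, so the 9 names cover 10 of the 26873 genes in the files. Their messenger RNA was measured in whole wild-type zebrafish larvae at 5 days post fertilization. The larvae had been kept from day 2 to day 5 in water with the potassium salt of perfluorooctanesulfonate (PFOS), a persistent surfactant, at 0.03, 0.3 or 1 ppm, or with no PFOS. All 4 groups, the control included, received 0.2% DMSO, the solvent of the PFOS stocks. Each group had 3 libraries, and each library was made from 10 pooled larvae, so differences between single larvae are averaged out.

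The transcription factor p53 is stabilised when DNA is damaged or cells are otherwise stressed, and it then switches on genes that halt the cell cycle or start cell death. Mdm2 marks p53 for degradation and is itself a p53 target, which closes a feedback loop. Apoptosis runs through mitochondria, where BH3-only proteins such as Puma release Bax from the restraint of Bcl-2 family members, or through death receptors, which act by caspase 8. Both routes end in executioner caspases such as caspase 3. In zebrafish embryos and larvae, cdkn1a, mdm2 and ccng1 are widely used as transcriptional readouts of p53 activity.

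The files hold normalised counts per gene, whole numbers that total 24061372 to 31907243 per library. From the steps between the values, 11 of the 12 libraries were estimated to hold 21600000 to 34900000 reads. The steps of 0.3 ppm replicate 3 were too unclear for an estimate. A principal component analysis placed the 4 libraries of replicate 2 together at the positive end of the first component (31.8 to 50), and control replicate 1 apart on the second (-61.9). Whether the 3 libraries of a group stem from separate clutches or exposures is not stated in the labels, so the p-values reflect variation among these libraries, which may be technical. Of all genes, 22320 had a value of 10 or more in at least 3 libraries and were tested with limma on log2(value + 1), with p-values adjusted over all of them by Benjamini-Hochberg and a threshold of 0.05 for a call. All 10 gene IDs of the p53 and apoptosis genes were among them.

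None of the 9 genes passed the test over all genes at any dose. Most of them, among them the p53 readouts mdm2, cdkn1a and ccng1, had overlapping values in all groups, and only bbc3 and casp8 had an unadjusted p under 0.05 in any comparison. At 1 ppm, 31 of all tested genes (0.139%) passed an adjusted p of 0.05, at 0.3 ppm 29 (0.13%), at 0.03 ppm 13 (0.0582%), and for the mean of the 3 doses against the control 42 (0.188%). When the replicate number was added as a term, the count was 58 at 1 ppm and 78 for the mean of the doses. A slope over the order of the 4 groups called 3 genes (0.0134%). In each of these 5 comparisons 0 of the 10 gene IDs were called with limma. At an unadjusted p under 0.05 there were 0, 2 and 2 of 10 at 0.03, 0.3 and 1 ppm, where the shares of all tested genes were 3.49%, 2.82% and 4.74%. The mean of the doses gave 2 of 10 (4.35% of all tested genes), and so did the slope (5.56%). In the last 4 comparisons these were bbc3 and casp8, and both were lower with PFOS.

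**Figure D1:**
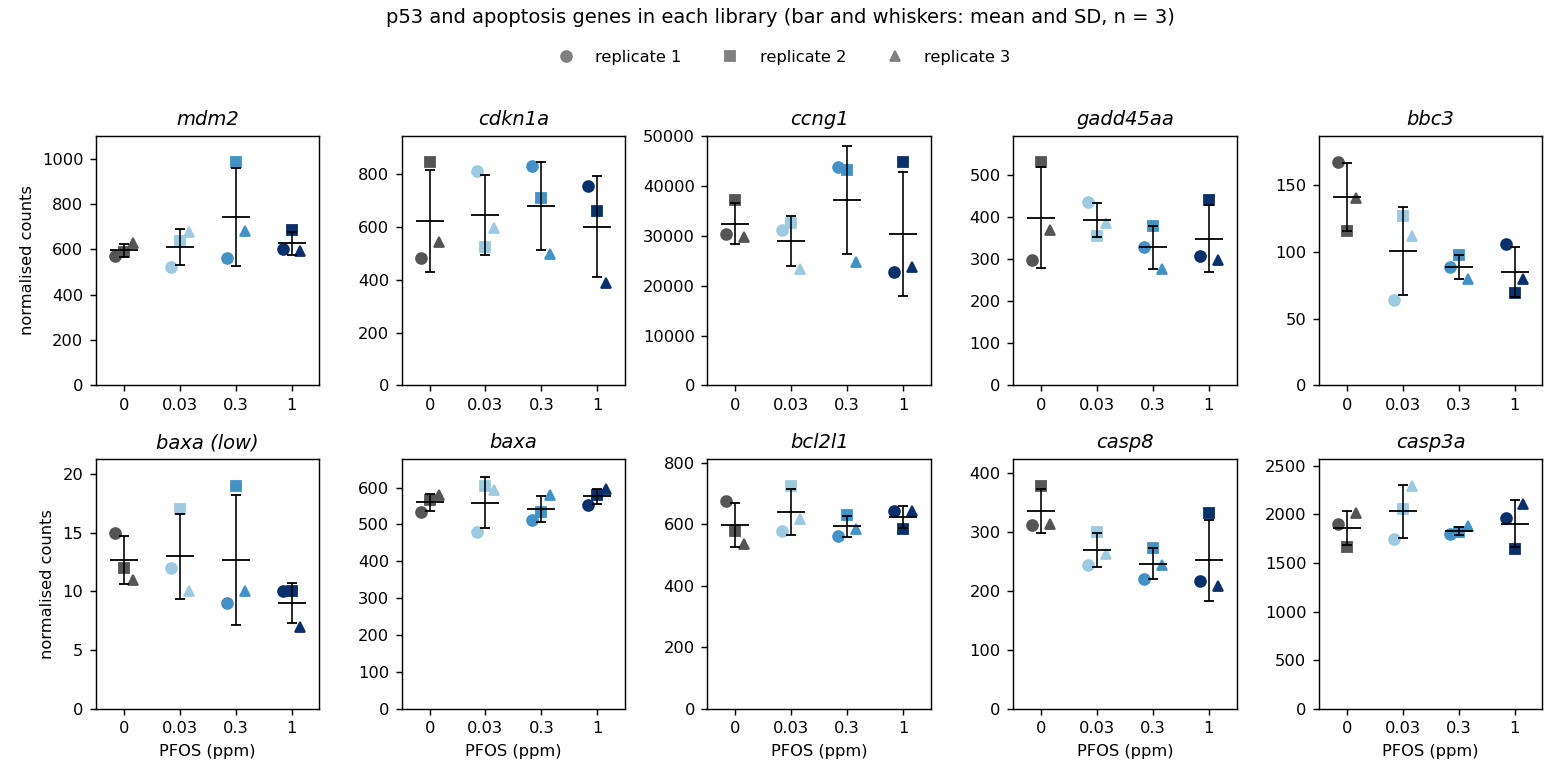
Normalised counts (y axis, each starting at 0) of the 10 gene IDs in the 12 libraries, by PFOS dose in ppm (x axis, 0 is the solvent control). Symbols mark replicate numbers, and the bar and whiskers are the mean and SD of 3 libraries. bbc3 and casp8 sit highest in the control, the larger baxa record and bcl2l1 are nearly level, and 1 library of 0.3 ppm stands high for mdm2. The record marked low is ENSDARG00000089129.

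mdm2 (ENSDARG00000033443), the ubiquitin ligase that restrains p53, had 572, 589 and 627 normalised counts in control replicates 1, 2 and 3. The values were 521, 635 and 676 at 0.03 ppm, 563, 983 and 680 at 0.3 ppm, and 601, 684 and 593 at 1 ppm. The groups overlapped at every dose, and 1 library, 0.3 ppm replicate 2, stood above all others. The mean was 596 ± 28.2 in the control and 742 ± 217 at 0.3 ppm (SD, n = 3), a log2 fold change of 0.28 with SE 0.187 (limma adjusted p = 0.9998). Without 0.3 ppm replicate 2 that log2 fold change was 0.055 (adjusted p = 1 in limma). At 1 ppm the log2 fold change was 0.07, with a 95% interval from -0.34 to 0.47. mdm4, the paralogue of mdm2 which binds and inhibits p53, averaged 1355 ± 65.2 normalised counts in controls, against 1449 ± 176 at 1 ppm (SD, n = 3).

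The library that was high for mdm2 was also high for a heat shock gene. The 3 genes whose pattern over the 12 libraries was most like that of mdm2 were ddhd2, a phospholipase gene (Pearson's r = 0.904), edrf1 (r = 0.886) and hsp70.1, an inducible heat shock gene (r = 0.881). These are descriptions over 12 libraries, picked as the highest of 13492 genes. hsp70.1 had 2521 normalised counts in 0.3 ppm replicate 2 and 17 to 65 in the other 11 libraries. ddhd2 had 751 there against 225 to 298 elsewhere, and edrf1 583 against 255 to 338. The part of this library's state in the mdm2 value was not tested beyond leaving it out.

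cdkn1a (ENSDARG00000076554), which encodes the cyclin-dependent kinase inhibitor p21, is a p53 target that arrests the cell cycle. In the control it had 483, 845 and 542 normalised counts, and it had 814, 524 and 598 at 0.03 ppm, 830, 712 and 498 at 0.3 ppm, and 755, 661 and 387 at 1 ppm. Every group spanned much of the same range. The means were 623 ± 194 in the control and 601 ± 191 at 1 ppm (SD, n = 3), a log2 fold change of -0.07 with SE 0.291 (limma adjusted p = 1). The 95% interval ran from 0.617-fold to 1.48-fold of the control. The genes most like cdkn1a in pattern were cep85, a centrosomal protein gene (r = 0.898), endouc (r = 0.855) and plgrkt, a plasminogen receptor gene (r = 0.852).

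ccng1 (ENSDARG00000076667), which encodes cyclin G1 and is a p53 target that in mammals acts on Mdm2, had 30285, 37241 and 29866 normalised counts in the control. It had 31106, 32507 and 23297 at 0.03 ppm, 43804, 43124 and 24742 at 0.3 ppm, and 22680, 44726 and 23694 at 1 ppm. Both extremes of the 12 libraries were in the 1 ppm group. The means were 32460 ± 4142 and 30370 ± 12450 (SD, n = 3), a log2 fold change of -0.16 with SE 0.292 (limma adjusted p = 1). Replicate 2 had 32507 to 44726 over its 4 libraries and replicate 3 had 23297 to 29866. On the log2 scale the replicate number carried 54.3% of the variance of ccng1 and the dose group 15%, where the medians over all tested genes were 32.3% and 19.7%.

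Of the marker shares, that of skeletal muscle had the largest r with ccng1, and others also varied with it. A list of 10 muscle markers took 5.14% to 8.82% of the normalised counts of a library. The 4 libraries with the lowest ccng1 values had 5.14% to 6.26%, and the 4 with the highest had 7.98% to 8.82%. Over 12 libraries Pearson's r of the log2 values was 0.879 (permutation p = 0.00017, adjusted p = 0.0153 over 90 relations of members with marker lists) and Spearman's rho 0.881 (permutation, adjusted p = 0.0279). These relations were computed after the values were seen. How many of all tested genes vary as strongly with a marker share was not counted. The relations are therefore not shown to be particular to ccng1. Without the 2 libraries farthest from the median of ccng1, which were 0.3 ppm replicate 1 and 1 ppm replicate 2, r was 0.840 (permutation, adjusted p = 0.0840), over 10 libraries. For deviations from the mean of each replicate number r was 0.874 (permutation, adjusted p = 0.0108). Such deviations were shuffled freely over all 12 libraries, which ignores the replicate numbers, so their p-values may be too small. With the share of 6 intestine markers r of ccng1 was -0.803 and rho -0.825 (permutation, adjusted p = 0.0600 and 0.0444). For intestine, r without the same 2 libraries was -0.877 (permutation, adjusted p = 0.0297) and for deviations from replicate means -0.652 (permutation, adjusted p = 0.341). The share of epidermis markers had r = 0.667 and rho = 0.713 with ccng1 (permutation, adjusted p = 0.198 and 0.148). That of neuron markers had r = -0.671 and rho = -0.755 (permutation, adjusted p = 0.198 and 0.112). Within single replicate numbers there are 4 libraries, too few for a correlation. In pooled larvae, fewer cells of a type and less RNA per cell cannot be told apart. The genes most like ccng1 in pattern were npm3, of the nucleophosmin family (r = 0.963), the transcription and nascent-chain factor gene btf3 (r = 0.961) and tnni1al, a troponin I gene of muscle (r = 0.960).

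**Figure D2:**
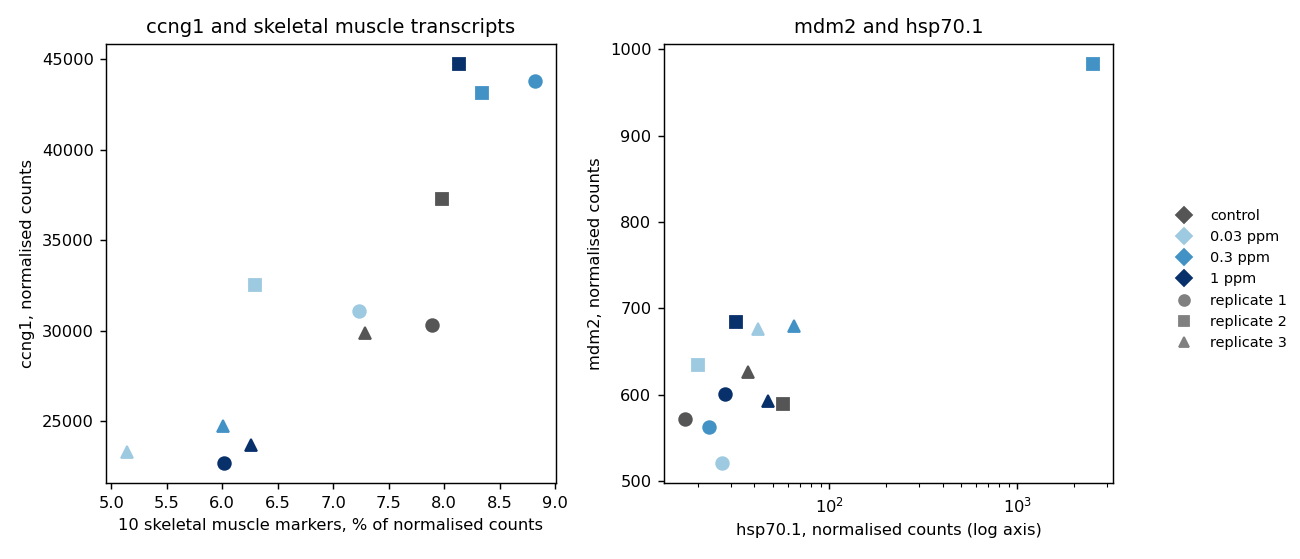
Left, ccng1 in normalised counts (y axis) against the share of normalised counts taken by 10 skeletal muscle markers (x axis, percent). Right, mdm2 against hsp70.1, both in normalised counts, with a log x axis. Each point is 1 library, coloured by group and shaped by replicate number. The libraries with more muscle transcripts have more ccng1 (r = 0.879), and 0.3 ppm replicate 2 stands alone at 2521 hsp70.1 and 983 mdm2.

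gadd45aa (ENSDARG00000043581), of a family of growth arrest and DNA damage genes, had 297, 530 and 369 normalised counts in the control. The values were 435, 355 and 386 at 0.03 ppm, 328, 379 and 277 at 0.3 ppm, and 308, 441 and 298 at 1 ppm. The groups overlapped at every dose. The mean was 399 ± 119 in the control and 349 ± 79.8 at 1 ppm (SD, n = 3), a difference smaller than either SD, with a log2 fold change of -0.17 with SE 0.224 (limma adjusted p = 1). The means of its paralogue gadd45ab were 1047 ± 279 and 898 ± 120, and those of gadd45ba 1534 ± 991 and 1474 ± 437. The control values of gadd45ba were 968, 2678 and 956 and those of gadd45bb 219, 522 and 275, so control replicate 2 was the highest library for both genes, as it was for gadd45aa and cdkn1a. Control replicate 2 was also the highest library for ccng2, the second cyclin G gene, at 2207 against 911 to 1702 elsewhere, for gadd45ab at 1356, and for the p53 target pmaip1 at 998. The same library was the highest for casp8 (378) and for mcl1a, both described below. The share of all tested genes that peak in this library was not counted, so the pattern cannot be assigned to these genes. Among the 11 listed paralogues of the 9 genes, 9 were lower at 1 ppm with a median log2 fold change of -0.19, and 0 were called.

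bbc3 (ENSDARG00000069282) encodes Puma, the BH3-only protein through which p53 starts mitochondrial apoptosis. It had 167, 116 and 140 normalised counts in control replicates 1, 2 and 3. The values were 64, 127 and 112 at 0.03 ppm, 89, 98 and 80 at 0.3 ppm, and 106, 69 and 80 at 1 ppm. The control and the 0.03 ppm group overlapped, and all libraries of 0.3 and 1 ppm lay below all controls. No overlap with the control was seen for 7.4%, 7.09% and 8.75% of all tested genes at 0.03, 0.3 and 1 ppm. The mean was 141 ± 25.5 in the control and 101 ± 32.9, 89 ± 9 and 85 ± 19 at the 3 doses (SD, n = 3).

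The log2 fold change of bbc3 was -0.52, -0.65 and -0.73 at 0.03, 0.3 and 1 ppm, with SE 0.267 for each. At 1 ppm this is 1.66-fold lower, with a 95% interval from 0.404-fold to 0.9-fold of the control, unadjusted p = 0.0174 and adjusted p = 0.882 (limma). For the mean of the doses the log2 fold change was -0.63 (unadjusted p = 0.0127, limma adjusted p = 0.799), and the slope was -0.23 per step of dose (adjusted p = 0.760 in limma). bbc3 ranked 354 among 22320 genes by p in the comparison of all doses, so it failed the correction. The dose group carried 51.4% of its variance and the replicate number 0.00241%. With a weight estimated for each library the limma adjusted p for the mean of the doses was 0.0477, while over 25 alternatives it ran from 0.0477 to 1. That setting called 802 of all tested genes for the mean of the doses, against 42 in the main fit, so the call is not particular to bbc3. All 25 gave a negative log2 fold change, from -0.81 to -0.46, but they reuse the same libraries and are not separate observations.

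casp8 (ENSDARG00000058325), the initiator caspase of the death receptor route, was also highest in the control on average. The control libraries held 312, 378 and 314 normalised counts, followed by 244, 300 and 262 at 0.03 ppm, 220, 273 and 244 at 0.3 ppm, and 217, 331 and 208 at 1 ppm. The groups at 0.03 and 0.3 ppm lay below all controls, and 1 ppm replicate 2 overlapped with them. The mean was 335 ± 37.5 in the control and 269 ± 28.6, 246 ± 26.5 and 252 ± 68.6 at the 3 doses (SD, n = 3). The log2 fold changes were -0.32, -0.44 and -0.43, with SE 0.191 for each (limma adjusted p = 0.998, 0.9998 and 1). For the mean of the doses it was -0.40 (unadjusted p = 0.0245, limma adjusted p = 0.998), and the interval ran from 0.600-fold to 0.959-fold of the control.

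In casp8 the dose group carried 48.3% of the variance, the replicate number 40.7% and the rest 11%. The fit above has no term for the replicate number. With the replicate number as a term, 0 members were called for the mean of the doses. Over 25 alternatives the lowest limma adjusted p of casp8 for the mean of the doses was 0.05145, with 0 calls. This is the smallest value of the 25, and the main fit gave 0.998. All 25 gave a negative log2 fold change, from -0.47 to -0.31, but they reuse the same libraries and are not separate observations. At 1 ppm the lowest adjusted p over 20 alternatives was 0.05868 (limma), again the smallest of its set and not a typical value. Each of the 9 dosed libraries was below the control of the same number for casp8, and 8 of 9 were for bbc3. All tested genes showed the first pattern in 3.12% and at least 8 of 9 in 7.88%. The 3 doses share their controls, so these are not 3 separate observations. The genes most like casp8 were smc5, a subunit of a chromosome maintenance complex (r = 0.972), tmem176l.3b (r = 0.941) and nfkbiz, an atypical regulator of NF-kappaB (r = 0.934). The casp8 paralogues had lower normalised counts, which were not scaled to gene length. casp8l2 averaged 142 ± 31.2 in controls and 105 ± 21.5 at 1 ppm, and casp8l1 13 ± 3 and 10 ± 4.58.

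The summed share of the neutrophil and macrophage markers was highest in the control when mpeg1.2 was included. The 10 markers together took 0.0144% to 0.0183% of the total in the control, and 0.0113% to 0.0141%, 0.011% to 0.0137% and 0.0107% to 0.0139% at 0.03, 0.3 and 1 ppm. All 9 dosed libraries thus had a smaller share than all 3 controls, but the groups overlapped without mpeg1.2, a sum computed after the values were seen. The other 9 markers took 0.0104% to 0.0132% in the control and 0.00933% to 0.0119%, 0.00955% to 0.0122% and 0.00928% to 0.0126% at the 3 doses. Their median share was 0.0117% in the control and 0.0109%, 0.0119% and 0.0112% at 0.03, 0.3 and 1 ppm, so at 0.3 ppm it was not below the control. For the mean of the doses 8 of 10 markers were lower, 1 of them called, and 0 of the 10 were at 0 in all libraries. The called one was mpeg1.2, a perforin-like macrophage gene, with 1005 to 1768 normalised counts in controls and 255 to 567 in dosed libraries (log2 fold change -1.63 for the mean of the doses, limma adjusted p = 0.0122, and -1.79 at 1 ppm, adjusted p = 0.0388). Over 12 libraries the correlation with the share of all 10 markers, mpeg1.2 included, was r = 0.552 for bbc3 (rho = 0.644, permutation adjusted p = 0.353 and 0.183). For casp8 it was r = 0.254 (rho = 0.186, permutation adjusted p = 0.716 and 0.840). Without the 2 libraries farthest from the median these were 0.576 and -0.0288, and for deviations from replicate means 0.622 and 0.729 (permutation adjusted p = 0.341 and 0.282). Of the 9 marker shares, that of erythrocytes had the largest r with bbc3 in size (r = -0.599, rho = -0.680, permutation adjusted p = 0.266 and 0.164), with r = -0.710 for deviations from replicate means (permutation, adjusted p = 0.282). The share of liver markers had r = -0.384 and rho = -0.536 with bbc3 (permutation, adjusted p = 0.564 and 0.329). For deviations from replicate means r was -0.391 (permutation, adjusted p = 0.608). Only r without control replicate 1 and 0.03 ppm replicate 1, the 2 libraries farthest from the median of bbc3, passed (r = -0.873, permutation adjusted p = 0.0207). The part of these cell types in the values of bbc3 and casp8 was not tested.

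**Figure D3:**
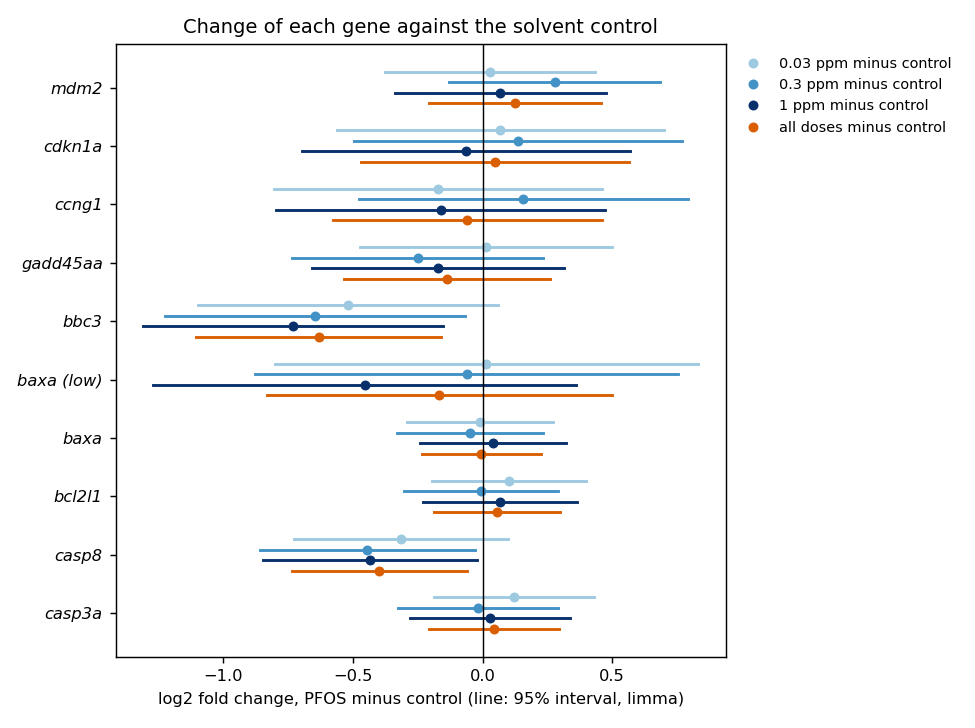
Log2 fold change against the control (x axis) for each gene ID (y axis) at 0.03, 0.3 and 1 ppm and for the mean of the doses. Points are limma estimates and lines their 95% intervals, unadjusted. At 0.3 and 1 ppm and for the mean of the doses the intervals of bbc3 and casp8 lie below 0, and those of the other 8 gene IDs cross it.

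The larger record of baxa, which encodes the pore-forming protein Bax, varied little between libraries. This record, ENSDARG00000020623, stood at 535, 566 and 580 normalised counts in the 3 controls. It had 479, 605 and 593 at 0.03 ppm, 512, 534 and 581 at 0.3 ppm, and 554, 579 and 596 at 1 ppm. The highest library was 1.26 times the lowest. At 1 ppm the log2 fold change was 0.04 with SE 0.129 (limma adjusted p = 1), and the interval for the mean of the doses ran from 0.850-fold to 1.17-fold of the control. Its spread within groups, 0.111 on the log2 scale, was at percentile 3.1 of all tested genes, whose median was 0.3. The percentile was not matched for expression level, and the low baxa record was at percentile 62.6. This record correlated with the share of exocrine pancreas markers (r = 0.832, rho = 0.867, permutation adjusted p = 0.0279 for both). Without the 2 farthest libraries r was 0.748 (permutation, adjusted p = 0.229) and for deviations from replicate means 0.569 (permutation, adjusted p = 0.359), so the relation was not called in either case.

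The second baxa record, ENSDARG00000089129, had 7 to 19 normalised counts in the 12 libraries. At 1 ppm it had 10, 10 and 7, all below the 15, 12 and 11 of the control, a log2 fold change of -0.46 with SE 0.376 (limma adjusted p = 1). Whether reads were shared between these records is not given in the sources used here, so the low values are uncertain. The paralogue baxb averaged 122 ± 26.2 in controls and 105 ± 17.2 at 1 ppm (SD, n = 3).

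bcl2l1 (ENSDARG00000008434) encodes the anti-apoptotic protein Bcl-xL. Its normalised counts were 676, 578 and 537 in controls, 579, 725 and 616 at 0.03 ppm, 563, 630 and 585 at 0.3 ppm, and 643, 583 and 644 at 1 ppm. The groups overlapped at every dose. The log2 fold change at 1 ppm was 0.07 with SE 0.137 (limma adjusted p = 1), and the interval for the mean of the doses ran from 0.878-fold to 1.23-fold. Its spread within groups was at percentile 6.5 of all tested genes, not matched for expression level.

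casp3a (ENSDARG00000017905), an executioner caspase gene, held 1900, 1670 and 2019 normalised counts in controls. The values were 1751, 2054 and 2296 at 0.03 ppm, 1796, 1824 and 1879 at 0.3 ppm, and 1968, 1640 and 2110 at 1 ppm. The control range covered all libraries of 0.3 ppm. At 1 ppm the log2 fold change was 0.03 with SE 0.142 (limma adjusted p = 1), and for the mean of the doses the interval ran from 0.866-fold to 1.23-fold. Its paralogue casp3b was more variable, at 1045 ± 184 in the control and 805 ± 191 at 1 ppm, with a log2 fold change of -0.27 for the mean of the doses (limma adjusted p = 0.9997).

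Among the 45 pairs of the 10 gene IDs, 0 correlations over 12 libraries passed an adjusted p of 0.05 by permutation, with Pearson's r or Spearman's rho, and 5 had an unadjusted Pearson p under 0.05. The pair of smallest p was ccng1 with casp3a (r = -0.728, rho = -0.741, permutation p = 0.00811, adjusted p = 0.365 and 0.290), with r = -0.635 without the 2 farthest libraries. cdkn1a with gadd45aa had r = 0.608 and rho = 0.643 (permutation adjusted p = 0.398 and 0.290), and r = 0.411 without the 2 farthest. For deviations from the mean of each replicate number these pairs had r = -0.528 and 0.682 (permutation, adjusted p = 0.337 and 0.170). The pairs of smallest p on that measure were bcl2l1 with casp3a (r = 0.783) and cdkn1a with bcl2l1 (r = -0.750), both with a permutation adjusted p = 0.108. The p53 targets mdm2 and cdkn1a had r = -0.034 and rho = -0.266 (permutation adjusted p = 0.952 and 0.741).

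**Figure D4:**
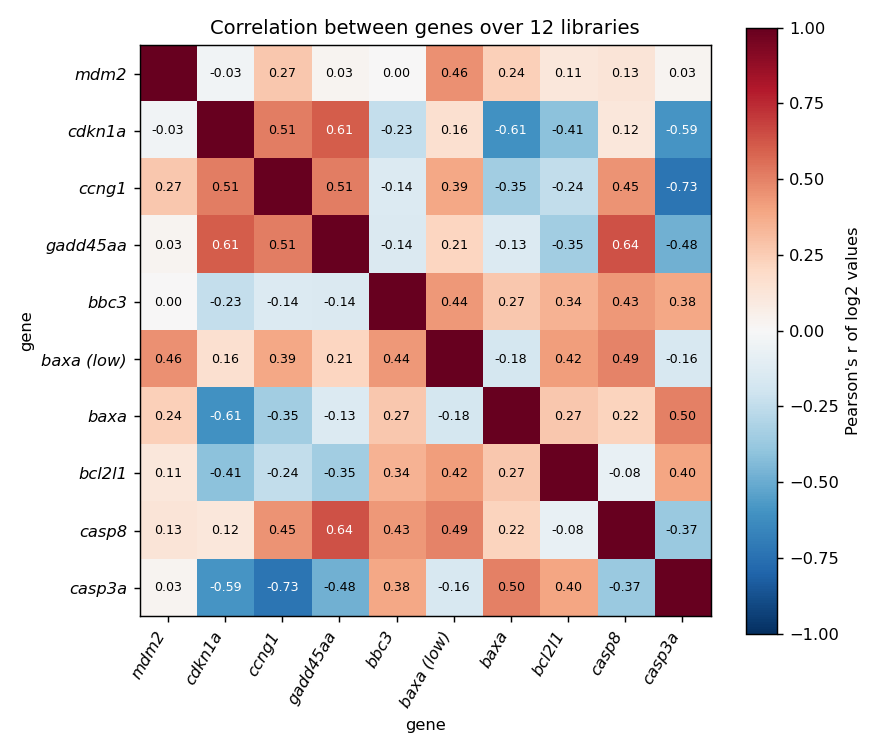
Pearson's r between the log2 normalised counts of the 10 gene IDs over 12 libraries, from -1 (blue) to 1 (red), with each value printed in its cell. ccng1 with casp3a (-0.73) is the strongest cell, and cdkn1a with gadd45aa is at 0.61.

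Among the regulators of p53, none was called with limma. In the list of 18 regulators, 0 passed at any dose, and 12 of 18 were lower at 1 ppm, with a median of -0.05. Over all tested genes 51.7% were lower at 1 ppm, with a median of -0.01. The regulators of smallest p for the mean of the doses were sirt1, a deacetylase that acts on p53 (734 ± 72.2 in the control, 624 ± 45.2 at 1 ppm), prkdc, the catalytic subunit of DNA-dependent protein kinase, and the acetyltransferase gene ep300b. Among 47 tested records of other p53 targets, 0 were called, 25 were lower at 1 ppm and the median was -0.09. Many of these records share the single name TRIM35. Their log2 fold changes at 1 ppm ran from -1.55 to 0.28 and were mostly negative, so this name weighs on the count and the median. sesn1, a stress-induced sestrin, averaged 6179 ± 1212 in controls and 4127 ± 161 at 1 ppm (limma, mean of the doses, adjusted p = 0.9997). The record ENSDARG00000102219 of the name TRIM35, a tripartite motif gene, had group means of 12.3 to 26.3.

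Of the 8 pathway lists, the BCL-2 family held the smallest adjusted p for the mean of the doses, 0.288 with limma. It belonged to mcl1a, an anti-apoptotic member with a short-lived protein. The controls held 3554, 5190 and 4225 normalised counts of mcl1a, and the 9 dosed libraries 2467 to 3451. All dosed libraries lay below all controls, as in 0.963% of tested genes. The means were 4323 ± 822 in the control and 2981 ± 433, 2890 ± 122 and 2879 ± 418 at the 3 doses (SD, n = 3). The log2 fold change for the mean of the doses was -0.56 with SE 0.137 (unadjusted p = 0.00143, limma adjusted p = 0.288). The BH3-only genes bik, with means of 211 ± 16 in the control and 145 ± 46.3 at 1 ppm, and pmaip1 (Noxa, also a p53 target), with 678 ± 279 and 370 ± 107, had limma adjusted p = 0.932 and 0.992 at 1 ppm and 0.958 and 0.9997 for the mean of the doses. Of 24 tested members 17 were lower at 1 ppm (median -0.14), 18 for the mean of the doses (median -0.12), and 0 were called. Members that block death, such as mcl1a, and members that promote it, such as bik and pmaip1, were both among the lower values.

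Caspases, inhibitors of apoptosis and apoptosome genes had 38 tested records, of which 23 were lower at 1 ppm (median -0.04) and 0 were called. Several of these records share the single name HTRA2, so they are not 38 distinct genes. The log2 fold changes of that name at 1 ppm ran from -1.449 to 2.015, the extremes of the list. casp9, the initiator caspase of the mitochondrial route, stood at 237, 242 and 255 in controls and at 156 to 222 in the dosed libraries, without overlap (log2 fold change -0.34, limma adjusted p = 0.9997). Of the 38 records it was the only 1 without overlap over all doses, and 0.963% of all tested genes were lower without overlap. birc6, a large inhibitor of apoptosis, averaged 2354 ± 373 in controls and 1748 ± 90.4 at 1 ppm, and the executioner casp6 829 ± 102 and 639 ± 185. These named genes were all lower, but 15 of the 38 records were higher at 1 ppm. One of the higher records was cycsb, whose 1 ppm libraries all lay above all controls (log2 fold change 0.36 with SE 0.165). Of 19 death receptor genes 15 were lower at 1 ppm (median -0.17) and 0 were called. In tnfb, a tumour necrosis factor gene, the control values were 55, 95 and 83 and those at 1 ppm 22, 46 and 38 (log2 fold change -0.94 for the mean of the doses, limma adjusted p = 0.567). The receptor gene tnfrsfa averaged 223 ± 27.8 in controls and 258 ± 12.5 at 1 ppm, and tnfrsf1b 281 ± 73.5 and 172 ± 28.6 (limma adjusted p = 0.9997 for the mean of the doses for both).

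Among genes of the DNA damage response 36 of 43 had a negative log2 fold change at 1 ppm, and 0 were called. Their median was -0.09, in a range from -0.27 to 0.17. At 0.03 ppm 24 of 43 were lower, at 0.3 ppm 31 and for the mean of the doses 34. Over all tested genes 53.3%, 51.2% and 52.5% were lower in these comparisons. Some genes of this list, such as chek1 and chek2, are also among the p53 regulators, so the counts of these lists are not separate. The gene name ddb1, for a subunit of a ubiquitin ligase at damaged chromatin, has 2 records. One, ENSDARG00000074431, averaged 969 ± 145 in controls and 818 ± 93.2 at 1 ppm (limma adjusted p = 0.995 for the mean of the doses), and the other, ENSDARG00000103083, 610 ± 28.4 and 516 ± 42.9. topbp1, which activates the checkpoint kinase ATR, averaged 255 ± 22.5 and 228 ± 4.58. CDK inhibitors and pocket proteins had 7 of 12 lower at 1 ppm (median -0.08) with 0 called. For the mean of the doses the smallest p of this list belonged to rbl1, cdkn3 and cdkn2c. Proliferation genes had 22 of 42 lower at 1 ppm (median -0.03) and 0 called. pcna, the sliding clamp of DNA replication, averaged 7514 ± 723 in controls and 7010 ± 296 at 1 ppm. rrm2, a ribonucleotide reductase subunit, has 2 records: ENSDARG00000078069 had 895 ± 50.8 and 1194 ± 282, ENSDARG00000020711 had 3767 ± 678 and 3031 ± 397. ccnf, cyclin F, had 226 ± 23 and 191 ± 17 (adjusted p = 0.960 in limma for the mean of the doses).

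**Figure D5:**
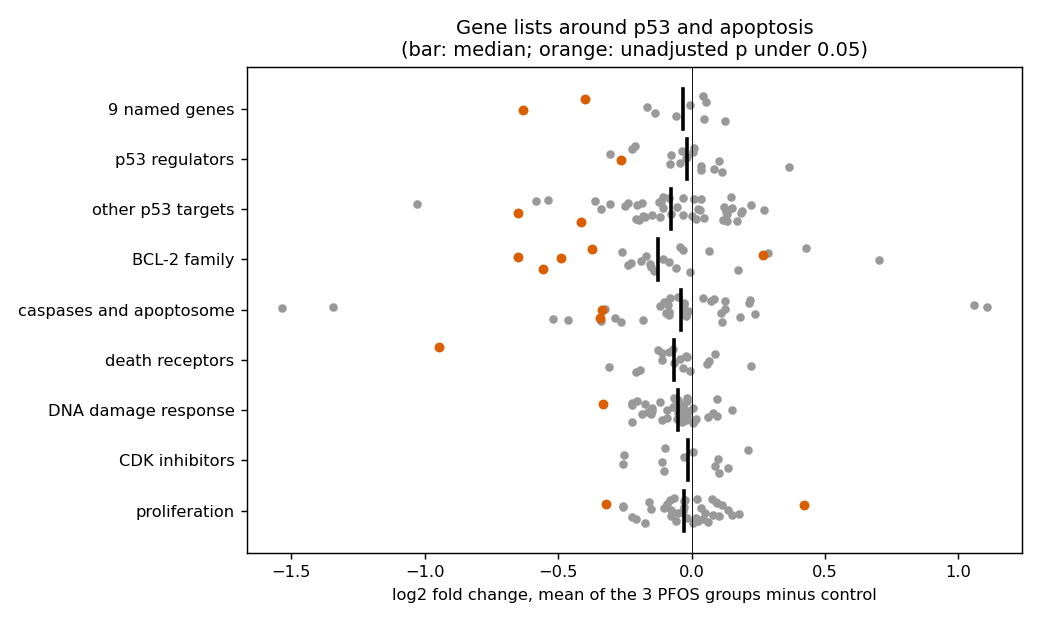
Log2 fold change of the mean of the 3 PFOS groups against the control (x axis) for each tested gene of 9 lists (y axis), with the median as a bar. Orange points have an unadjusted limma p under 0.05, and 0 of the points pass the adjusted threshold. The medians lie between -0.12 and -0.01.

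The larvae held transcripts of all tissues looked for. Markers of epidermis, skeletal muscle, liver, neurons, lens, erythrocytes, intestine, exocrine pancreas and leukocytes were each detected, with 0 markers at 0 in all libraries. Apart from mpeg1.2, 0 markers were called in the 5 comparisons. Epidermis markers took 7.99% to 10.9% of the counts in replicate 2 and 4.65% to 7.47% in the other libraries. At 1 ppm 11 of 11 liver markers, 7 of 7 tested erythrocyte markers and 6 of 6 intestine markers had a positive log2 fold change, with medians of 0.74, 0.54 and 0.39 and smallest limma adjusted p = 0.590, 0.860 and 0.965. All 9 lens markers had a negative one (median -0.18, smallest limma adjusted p = 1). For the mean of the doses 9 of 9 neuron, 9 of 9 lens and 7 of 7 exocrine pancreas markers had a negative log2 fold change (medians -0.17, -0.29 and -0.20, smallest limma adjusted p = 0.9997 for each).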

How the data were processed

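Messenger RNA of 12 libraries was sequenced after poly-A selection with a stranded kit, per the labels' protocols. The deposited value per gene is named normalised counts, per the file headers, and is treated as a score: how the authors scaled the values is not given in the sources used here. Recomputed median-ratio scaling left the count of called genes unchanged in every comparison. The values are whole numbers without a common total. In 11 of 12 libraries their steps resembled read counts divided by 1 factor per library, to a varying degree. The correlation with such steps ran from 0.444 (0.3 ppm replicate 2) to 0.933 (control replicate 1), so the depth estimates differ in certainty. Build GRCz10 and the tools DESeq2 1.10.1, RSEM 1.2.28, STAR 2.5.1b and CASAVA appear in the submitters' processing notes, without settings. A joint table holds the same values as the 12 single files and was not used.

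In R 4.3.3, all 12 libraries were modelled together on the log2(value + 1) scale with limma 3.58.1, with 1 coefficient per group, a mean-variance trend and two-sided tests, so fold changes of low genes are understated. The filter required a value of 10 or more in 3 or more libraries. p-values were adjusted by Benjamini-Hochberg over all tested genes at a threshold of 0.05. An exact test of 3 against 3 libraries cannot go below 0.1. Correlations used 100000 permutations (NumPy 2.4.6), adjusted over each family. Deviations from replicate means were not shuffled within replicate numbers, so all their p-values may be too small. Members and lists were chosen with earlier results of these data known. Named are all 9 members, their paralogues, and in each list every called gene and up to 3 of smallest p for the mean of the doses. pcna and pathway genes named beyond these were chosen after their values were seen. For 4 members, the 3 genes of highest r with a mean of at least 100 are named. List names were matched ignoring case or by gene ID. The method was also run on simulated data with independent noise in each library and no replicate effect. That run therefore does not cover differences between replicate numbers. Replicate numbers paired the samples clearly only at 0.3 ppm (correlation of deviations 0.145 to 0.286 for same numbers, at most -0.0106 for others). The ranges overlapped at 1 ppm (0.119 to 0.478 for same numbers, up to 0.204 for others). They also overlapped at 0.03 ppm (0.0776 to 0.291, up to 0.226). Alternatives covered scaling, filter, pseudocount, replicate block, empirical Bayes, library weights and omitted libraries.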

Additional observations from a re-analysis of the deposited data

How the results depend on the processing

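The 9 genes kept their side of the threshold in 1104 of 1105 recomputed changes over 27 settings. The exception was bbc3 with library weights for the mean of the doses, which made 1 member called. Leaving out 1 library or replicate gave 0 members called in every comparison. Without replicate 1, 0 of all tested genes were called in any comparison. Without replicate 3 there was 1 for the slope and 0 otherwise. Those omissions therefore say nothing about the members in particular. The counts over all genes moved more. Library weights gave 57, 95, 768, 802 and 56 genes at 0.03, 0.3 and 1 ppm, for the mean of the doses and for the slope, against 13, 29, 31, 42 and 3. The replicate block gave 20 at 0.03 ppm, 58 at 1 ppm, 78 for the mean of the doses and 9 for the slope, and changed no call of a member. Equal totals gave 6 and 18 at 0.03 and 0.3 ppm. Fitting only the compared groups gave 3, 10 and 3 at the 3 doses. Without a mean-variance trend there were 2 and 12 at 0.03 and 0.3 ppm and 0 for the slope, and a pseudocount of 10 gave 0 for the slope. Omitting libraries or replicates gave 0 to 11 genes at 0.03 ppm, 0 to 18 at 0.3 ppm, 0 to 47 at 1 ppm, 0 to 60 for the mean of the doses and 0 to 30 for the slope. The causes were not tested. No pair of members was called under either alternative for correlations. Depth was estimated at 21600000 reads or more in 11 libraries. The spread of 3 libraries a group limits what could be called: the SE of the change at 1 ppm ran from 0.129 (baxa, ENSDARG00000020623) to 0.376 (baxa, ENSDARG00000089129) on the log2 scale.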
